A study of Arabidopsis thaliana with 3 samples.

Results

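Dehydrins are small, hydrophilic and largely disordered plant proteins of the late embryogenesis abundant class. They share a lysine-rich repeat, the K segment, and build up when cells lose water, as in drought, cold or seed drying, where they are known to protect membranes and enzymes. Their genes are textbook targets of abscisic acid (ABA), whose bZIP factors of the ABF group act on ABA-responsive promoter elements, and of the CBF and DREB factors of the cold and drought responses. The 10 dehydrin genes described here are COR47 (AT1G20440), ERD10 (AT1G20450), ERD14 (AT1G76180), RAB18 (AT5G66400), LTI30 (AT3G50970, also called XERO2), XERO1 (AT3G50980), HIRD11 (AT1G54410), AT2G21490, AT4G38410 and AT4G39130, out of 27444 nuclear protein-coding genes. They were listed by locus as a gene family, and the family was chosen by the summit folds and ranks of COR47 and ERD10 in these same lists. Every value below is therefore a description and carries no test.

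The data are peak lists from ChIP-seq of DIG1 and DIG2, a pair of related proteins, in a series on ABA-responsive transcription factors. Col-0 whole seedlings, 4 days old and kept in the dark, received 10 uM dexamethasone for 6 h. They carried GFP-tagged DIG1, GFP-tagged DIG2 or GFP alone, and chromatin was precipitated with an antibody to GFP. All 3 groups shared accession, age, darkness, dexamethasone and antibody. The sources used here do not name the promoter that drives the tagged proteins, their level relative to the native ones or the number of lines. The series' design text states that every experiment had 2 or more replicates, but each group has 1 sample here, and whether a list comes from pooled replicates is not stated. A list of the GFP sample was not used here, so no control level can be set beside the values. A peak is an interval called by MACS2, and a summit is a position of locally highest enrichment within it. An interval may hold several. For DIG1 there were 13459 summits in 11343 peaks, and for DIG2 16562 in 13440, with read depth unknown for both. Fold is the enrichment at the summit over the modelled background as the authors' caller gave it, with medians of 3.19 in the DIG1 list and 3.80 in the DIG2 list.

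A check of the labels touches what the DIG1 list stands for. The DIG1 sample is labelled with the locus AT3G45810. The nearest DIG1 summit to that gene was 12468 bp away and the nearest DIG2 summit 12472 bp. The DIG1 list held 2 summits inside AT3G48510, with a strongest fold of 6.82. The DIG2 list held none inside AT3G48510, and its nearest summit was 890 bp away. The DIG2 sample is labelled AT5G50360, and inside that gene the DIG2 list held 1 summit, with a fold of 6.99. The DIG1 list held none inside AT5G50360, and its nearest summit was 433 bp away. Both lists thus had a summit within 3000 bp of AT3G48510 and of AT5G50360. What these summits stand for was not tested, and the lists are called DIG1 and DIG2 as labelled.

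The dehydrin genes fell into groups that differed in their summits. COR47, ERD10 and ERD14, which encode the acidic dehydrins of the family, had strong summits in both lists. HIRD11, a small histidine-rich dehydrin, had summits of moderate fold in both. AT4G38410 had a single weak summit in the DIG2 list. RAB18, the ABA-induced dehydrin, LTI30, the low-temperature-induced one, XERO1, AT2G21490 and AT4G39130 had none in either list. A summit was counted for a gene when it lay inside the gene or within 3000 bp of either end. By this rule 4 of the 10 genes had a DIG1 summit, against 54.9% of all protein-coding genes, and 5 had a DIG2 summit, against 59.7%. Summits of both factors occurred at 4 dehydrin genes and at 53.3% of all genes. With a window of 500 bp the same 4 genes had a DIG1 summit, against 31.0% of all genes, and a DIG2 summit, against 35.1%. Summits of both within 500 bp occurred at these 4 genes and at 29.6% of all genes. With 5000 bp, a width added after seeing the data, 7 members had a DIG1 summit against 67.3%, and 6 a DIG2 summit against 71.7%. These counts of 10 genes lay on either side of the shares of all genes depending on the window, and nothing about the family is read from them. Neighbouring members are not independent, since COR47 and ERD10 lie side by side, as do LTI30 and XERO1, and counted by location 3 of 8 places had DIG1 summits and 4 had DIG2 summits.

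The summits at COR47, ERD10 and ERD14 included some of the strongest in either list. Ranks here order the peaks of a list by the −log10 p of their strongest summit. Peaks among the 1000 strongest of the list reached COR47, ERD10 and ERD14 for DIG1 and for DIG2, or 3 of 10 members, against 7.7% of all genes for DIG1 and 7.27% for DIG2. That contrast was in view when the genes were listed, and nothing is read from it. The 4 dehydrin genes with DIG1 summits had a median strongest fold of 11.01, and the 5 with DIG2 summits one of 13.2. Over all genes with a summit in the same window, these medians were 3.79 and 4.74. The folds of COR47 and ERD10, by which the family was chosen, enter the dehydrin medians, so nothing is read from this contrast either. Folds of the 2 lists come from separate calls and are given side by side without comparing them.

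**Figure D1:**
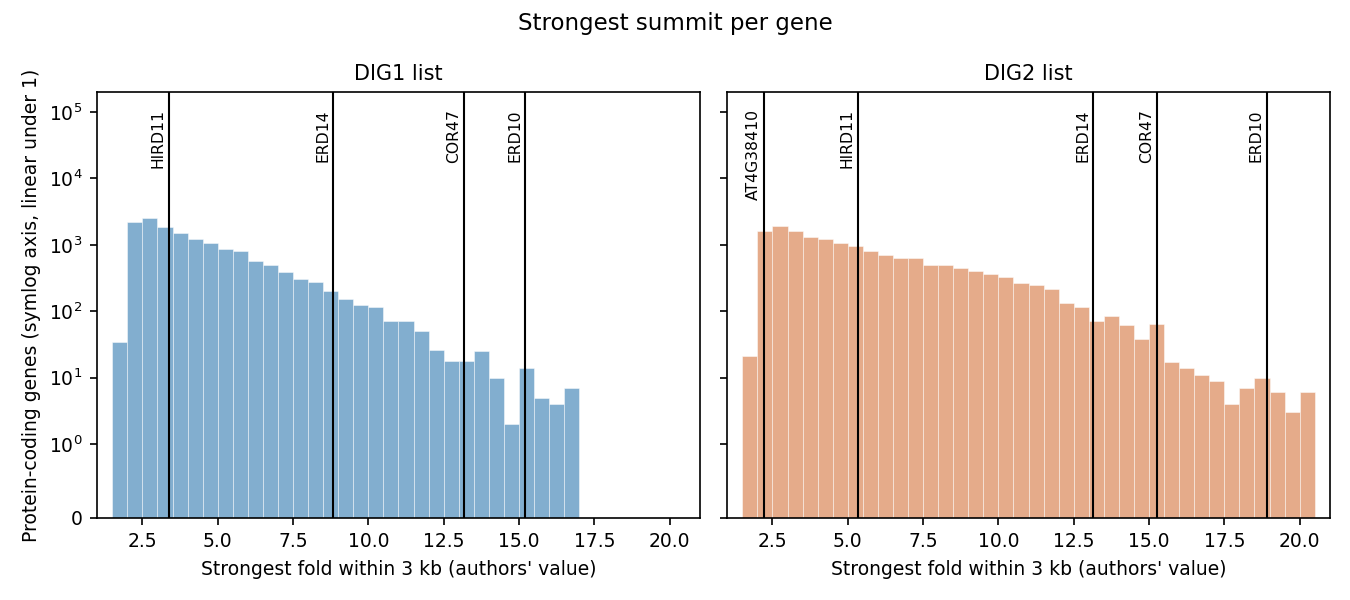
Histograms of the strongest fold within 3 kb of each protein-coding gene (number of genes, symlog axis) in the DIG1 and DIG2 lists, with vertical lines at the dehydrin genes that had a summit. ERD10 and COR47 lie at the far right of both histograms, at 15.2 and 13.2 for DIG1 and 18.9 and 15.3 for DIG2, while HIRD11 and AT4G38410 lie among the bulk of genes.

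COR47 and ERD10, cold- and dehydration-induced genes that lie next to each other on chromosome 1, had 2 tall summits in all in each list, and the windows of both genes took in some of the same summits. For DIG1 2 summits counted for both genes, and for DIG2 4 did. At COR47 the strongest DIG1 summit was at position 7086700 (TAIR10, counted from 1), in a peak from 7086323 to 7087364, with a fold of 13.2, a −log10 p of 747 and rank 39. The strongest DIG2 summit was at 7086710, in a peak from 7085537 to 7087418, with a fold of 15.3, a −log10 p of 1030 and rank 43. Both lay inside COR47 close to its higher-coordinate end, 173 bp from it for DIG1 and 163 bp for DIG2, and 93% of the way along the gene. Which end is the transcription start is not in the gene table used here, and whether a summit is exonic, intronic or in a UTR could not be read from it. The same summit lay 1203 bp from ERD10 for DIG1 and 1193 bp for DIG2, so it counted for both genes.

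At ERD10 the strongest summit lay outside the gene, again on the higher-coordinate side. It was at 7090104 in the DIG1 list, 498 bp from ERD10, with a fold of 15.2, a −log10 p of 844 and rank 17. In the DIG2 list it was at 7090110, 504 bp from ERD10, with a fold of 18.9, a −log10 p of 1206 and rank 11. A DIG1 summit as strong occurred within the window of 0.0802% of protein-coding genes, and a DIG2 summit as strong at 0.0619%. For COR47 these shares were 0.277% and 0.445%. The family was chosen by these same folds, so nothing is read from the shares. The ERD10 summit lies between ERD10 and its next neighbour AT1G20460, which was 837 bp away for DIG1 and 831 bp for DIG2, so it is nearer to the dehydrin gene. It fell just outside the window of COR47, at 3231 bp for DIG1 and 3237 bp for DIG2. The major summits of the 2 genes were 3404 bp apart in the DIG1 list and 3400 bp apart in the DIG2 list.

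The intervals beside ERD10 were among the widest in both lists. The DIG1 peak ran from 7089133 to 7091359, a width of 2227 bp that 1.35% of DIG1 peaks reached, and held 2 summits. The DIG2 peak ran from 7089046 to 7091333, a width of 2288 bp that 1.5% of DIG2 peaks reached. It held 4 listed summits, a number that 1.20% of DIG2 peaks reached or exceeded. In each list the next strongest summit of this interval lay farther from ERD10 and nearer to AT1G20460. It was at 7090711 with a fold of 3.23 for DIG1 and at 7090684 with a fold of 5.42 for DIG2, so that the major summit was 4.71 times as high for DIG1 and 3.49 times for DIG2. The other DIG2 summits of the interval were at 7089608, 2 bp from the end of ERD10, with a fold of 2.48, and at 7091176, inside AT1G20460, with a fold of 2.45. Neither had a listed DIG1 summit within 100 bp. Deposited summits of an interval carry letters, and the DIG1 interval beside ERD10 lacks 2 of them. The absence therefore holds only for the summits that are listed.

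Weaker summits stood at and within COR47 in both lists. At its lower-coordinate end a DIG1 summit lay 17 bp outside the gene (7084392, fold 2.40, rank 7613) and a DIG2 summit 31 bp outside (7084378, fold 4.39, rank 4501). These sit between COR47 and AT1G20430, which was 482 and 468 bp away. Inside COR47, 977 bp from the higher-coordinate end, a DIG1 summit at 7085896 had a fold of 2.81 in a peak of its own at rank 7168. The DIG2 counterpart at 7085874 had a fold of 4.45 and was called in the same interval as the major COR47 summit, 836 bp from it. Inside ERD10 itself only the DIG2 list had a summit, at 7088183, and the nearest DIG1 summit was 1483 bp away. That DIG2 summit had a fold of 3.23, in a peak from 7087984 to 7088356 at rank 8201. The wide intervals beside ERD10 also reached into the gene in both lists, with their summits outside it.

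**Figure D2:**
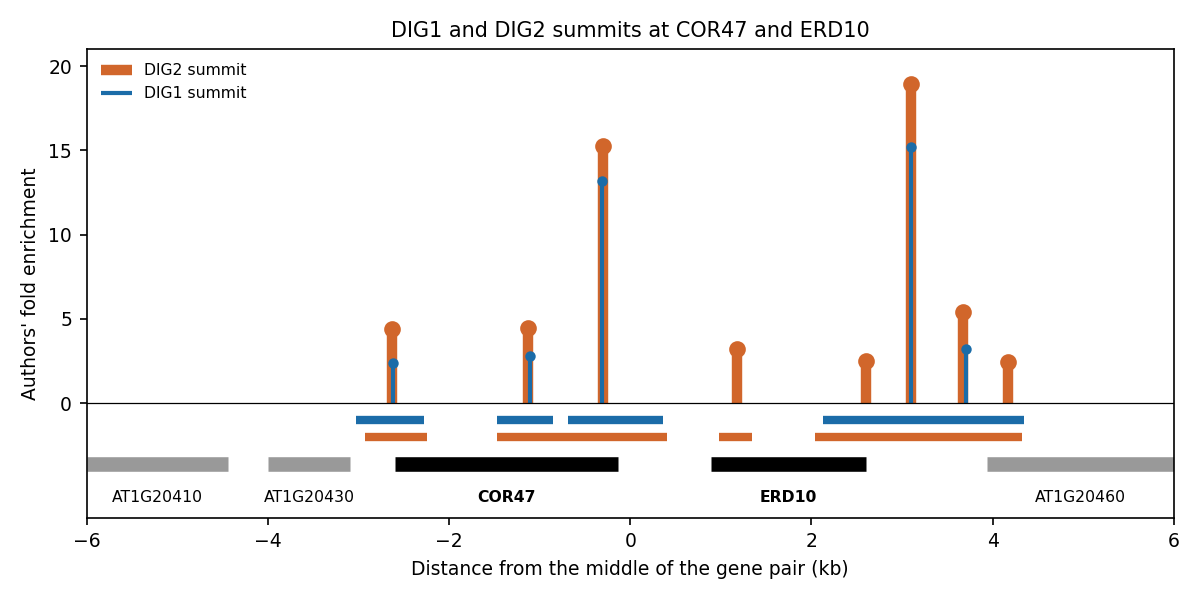
Map of COR47 and ERD10, with sticks at each summit (height, authors' fold; x axis, distance from the middle of the gene pair in kb), coloured bars for peak intervals and black or grey bars for dehydrin and other genes. The tallest sticks of both lists stand at the right-hand end of COR47 (13.2 and 15.3) and to the right of ERD10 (15.2 and 18.9), and DIG1 and DIG2 sticks coincide at 5 positions while 3 have a DIG2 stick alone.

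ERD14, a dehydrin gene whose product is known to bind calcium when phosphorylated, had a row of strong summits on its higher-coordinate side. The strongest was at 28588607 in the DIG1 list, 676 bp from the gene, with a fold of 8.83, a −log10 p of 370 and rank 424. In the DIG2 list it was at 28588602, 671 bp from the gene, with a fold of 13.2, a −log10 p of 726 and rank 298. A second strong summit followed at 28589648 for DIG1 (fold 6.71, rank 1072) and at 28589631 for DIG2 (fold 11.6, rank 482). It lay 1717 and 1700 bp from ERD14 but only 677 and 694 bp from the next gene, AT1G76185. It therefore sits nearer to that gene than to the dehydrin gene. The 2 strong summits were 1041 bp apart for DIG1 and 1029 bp apart for DIG2, in separate intervals.

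Summits also marked both ends of ERD14. At the higher-coordinate end the DIG1 summit lay 25 bp outside the gene, with a fold of 4.02, and the DIG2 summit lay on the last base of the gene, with a fold of 6.44. Each shared an interval with the strongest ERD14 summit of its list, with a width of 1554 bp in the DIG1 list and 1723 bp in the DIG2 list. At the lower-coordinate end the DIG1 summit lay 58 bp outside with a fold of 2.60, and the DIG2 summit 83 bp outside with a fold of 4.38. Those positions are between ERD14 and AT1G76170, which was 187 and 162 bp away. A further DIG1 summit at 28589952, with a fold of 2.84, had no DIG2 summit within 100 bp, the nearest being 321 bp away. It was the only DIG1 summit at the 10 genes without such a counterpart. ERD14 had 5 DIG1 summits in its window, and 1.93% of all genes had at least as many. For ERD10 and COR47 the DIG1 numbers were 4 and 3. In the DIG2 list the order differed, with 7 summits at ERD10, a number that 0.557% of all genes reached, 5 at COR47 (3.53%) and 4 at ERD14 (8.26%).

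HIRD11, whose histidine-rich product is known to bind metal ions, had 2 summits in each list and none of them strong. Just inside its higher-coordinate end, DIG1 had a summit 65 bp from the end (20310785, fold 3.37, rank 5001) and DIG2 77 bp from it (20310773, fold 5.17, rank 4156). The other summits lay 908 bp (DIG1, 20311758, fold 3.16, rank 6720) and 902 bp (DIG2, 20311752, fold 5.33, rank 4810) beyond that end and fell inside the neighbouring gene AT1G54420. In both lists the HIRD11 summits differed little in height, by 1.07 times for DIG1 and 1.03 times for DIG2. Summits at least as strong as these were found at 32.4% of all genes for DIG1 and 25.7% for DIG2, so HIRD11 was not exceptional.

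The positions in the 2 lists coincided closely. The 4 genes with DIG1 summits had 12 distinct DIG1 summits in 9 peaks, and the 5 genes with DIG2 summits had 15 distinct DIG2 summits in 10 peaks. All 9 DIG1 peaks shared at least 50% of the shorter interval with a DIG2 peak, as 96.9% of all DIG1 peaks did. Of the 10 DIG2 peaks 8 had such a DIG1 partner, against 80.1% of the DIG2 list. Counting summits within 100 bp as pairs, 11 DIG1 and 11 DIG2 summits formed pairs 5 to 27 bp apart, with a median of 14 bp. The share of all listed summits that pair by this rule is not given here. Nothing about the family is therefore read from these pairs or from the summits left without one. The tallest pair of each gene was 5 bp apart at ERD14, 6 bp at ERD10 and 10 bp at COR47. The second tall pair of ERD14 was 17 bp apart, and the HIRD11 pairs were 12 and 6 bp apart. Both precipitations used the same antibody and the control of each call is not given, so how much of the coincidence comes from what the lists share was not tested.

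Listed DIG2 summits without a listed DIG1 counterpart within 100 bp numbered 4, of which 3 are those at and beside ERD10 given above. The remaining one was the single summit of AT4G38410, a dehydrin gene on chromosome 4. It was at 17982273, in a peak from 17982046 to 17982698, 507 bp from AT4G38410 and 343 bp from the next gene, sks9. Its fold of 2.21 and −log10 p of 19.2 put the peak at rank 12657 of 13440, close to the list's lowest −log10 p of 16.013. The nearest DIG1 summit to AT4G38410 was 4296 bp away. A DIG2 summit with no DIG1 summit in the window occurred at 6.4% of all genes, and AT4G38410 was the only 1 of the 10 dehydrin genes with that pattern. The reverse, a DIG1 summit alone, occurred at 1.53% of genes and at no dehydrin gene.

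The other 5 dehydrin genes lay in stretches without summits, as 38.7% of all genes did. The nearest summit to RAB18 was 8223 bp away for DIG1 and 8227 bp for DIG2, beside DIM1B, with folds of 2.65 and 3.47. LTI30 and XERO1 lie next to each other on chromosome 3, and the nearest summit to both was inside BCS1. It was 8635 bp from LTI30 for DIG1 and 8622 bp for DIG2, and 9917 and 9904 bp from XERO1, with folds of 2.27 and 2.46. As far from a DIG1 summit as XERO1, or farther, were 16.6% of all genes, and for RAB18 this share was 20.7%. These 3 genes thus had neither a strong nor a weak summit near them.

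AT2G21490 and AT4G39130 were just outside the window. For AT4G39130 the nearest summits were 3236 bp away in the DIG1 list (fold 2.72) and 3234 bp away in the DIG2 list (fold 3.50), inside the neighbouring gene AT4G39140. For AT2G21490 a weak DIG1 summit was 3266 bp away (fold 2.22, rank 10667), and the nearest DIG2 summit was 7246 bp away with a fold of 9.92 at rank 1115. The farthest summit that the window still took in was the DIG2 summit 2735 bp from COR47, which lies beside ERD10. Another summit just beyond the window was on the lower-coordinate side of ERD14, at 3133 bp for DIG1 (fold 7.66) and 3145 bp for DIG2 (fold 10.2). It was 320 and 332 bp from AT1G76170 and so closest to that gene.

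**Figure D3:**
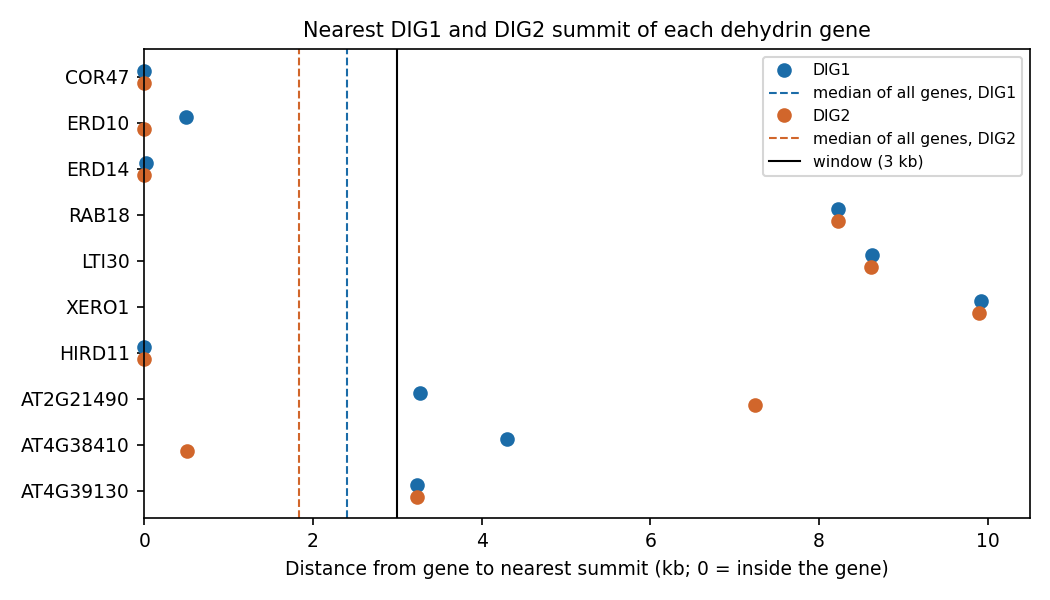
Distance in kb from each of the 10 dehydrin genes to the nearest summit of the DIG1 and DIG2 lists (0, inside the gene), with the 3 kb window and the medians over all protein-coding genes (2402 bp for DIG1 and 1830 bp for DIG2) as lines. COR47, ERD10, ERD14 and HIRD11 sit at or near 0 for both factors, AT4G38410 for DIG2 alone, and RAB18, LTI30 and XERO1 lie beyond 8 kb.

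The genes with summits of both factors had more intergenic space around them than the others in the family. The gaps to the neighbouring protein-coding genes on both sides summed to 2637 bp at ERD14, 2363 bp at ERD10, 1527 bp at COR47 and 1394 bp at HIRD11. AT4G38410, with the DIG2 summit alone, came next with 969 bp. The 5 genes without a summit had the smallest sums, with 824 bp at AT2G21490, 677 bp at RAB18, 527 bp at LTI30, 507 bp at XERO1 and 368 bp at AT4G39130. The groups did not overlap, but the sums are not independent. COR47 and ERD10 share the gap between them, as do LTI30 and XERO1, and each pair falls in a single group. Over all genes the median sum was 1856 bp, so COR47 and HIRD11 were below it too. Of all genes with gaps summing to under 1000 bp, 50.6% had a DIG1 summit in the window and 55.5% a DIG2 summit. Of genes with larger sums, 56.9% and 61.8% did. The order within the family was noticed after the values were seen, and the part of gene spacing in it was not tested.

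**Figure D4:**
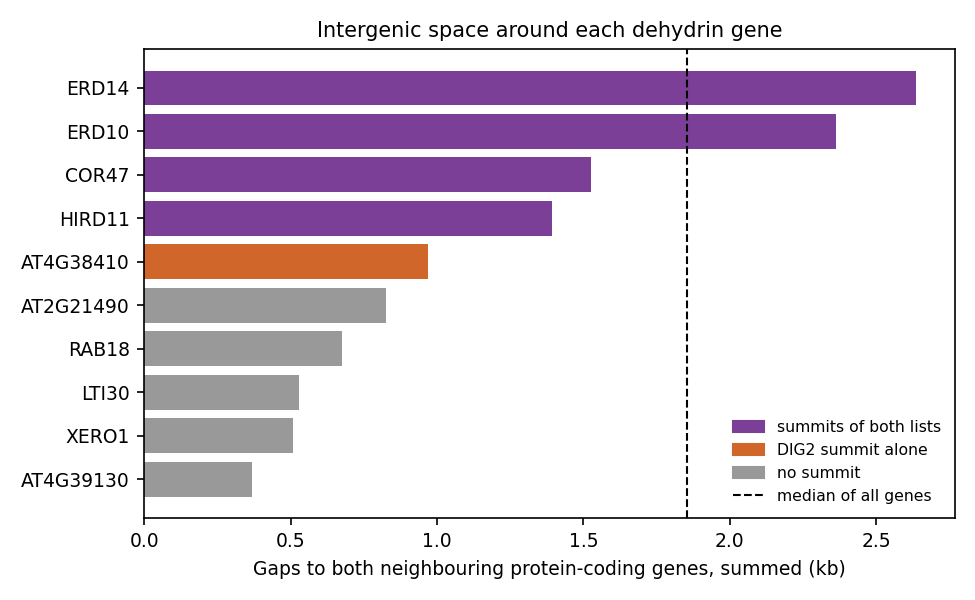
Bars give the summed gaps in kb from each dehydrin gene to its neighbouring protein-coding genes, coloured by which lists had a summit within 3 kb; the dashed line is the median over all genes. The 4 genes with summits of both factors have the longest bars (1394 to 2637 bp) and the 5 without a summit the shortest (368 to 824 bp).

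Genes of cold and dehydration regulators, ABF, CBF and DREB factors among them, and other genes of the same response are set beside these values. Both gene lists were chosen with earlier results of these data known. Some genes within each list share summits, so their counts and medians are not over independent places, and nothing is read from them. All 12 listed cold and dehydration regulator genes had summits of both factors, against 53.3% of all genes, with median strongest folds of 8.29 for DIG1 and 11.4 for DIG2. The strongest by −log10 p in both lists was at ABF3 (folds 15.6 and 16.7), a bZIP factor gene of the ABA response, which lies at the DIG1 peak of rank 1. ERD10, with 15.2 and 18.9, was in the same range. Next in the DIG1 list came DREB2A, a drought-response AP2 factor gene (folds 10.1 and 11.1), and in the DIG2 list CBF1 and CBF3, which encode cold-response AP2 factors and share a summit with folds of 9.0 and 14.06. Of 14 other late embryogenesis abundant and cold effector genes, 8 had DIG1 and 9 DIG2 summits, against 54.9% and 59.7% of all genes, with median strongest folds of 4.07 and 5.47. The strongest there was at LEA14 (folds 8.24 and 13.02), followed by SAG21 (5.06 and 8.27). COR15A, COR15B, LEA7, EM1 and EM6 had no summit of either factor.

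The genes whose strongest folds in the 2 lists were nearest to those of ERD10 and COR47 were partly the neighbours that share their summits. For ERD10 these were AT1G20460, which shares the summit, and AT1G23850 and RSZ21, which share another with folds of 15.2 and 19.2. For COR47 these were AT1G20430, which shares the summit at 2790 bp for DIG1, and AT1G03280 and AT1G03290, which share one with folds of 13.1 and 15.3. Likeness was the straight-line distance between the pairs of folds, over 2 values a gene.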

How the data were processed

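Per the submitters' processing notes, Bowtie 0.12.7, the TAIR10 build and MACS2 were used. The MACS2 version, the control of each call, any pooling of replicates and the read depth were not stated in any source used here. The deposited lists give for each summit the authors' fold enrichment (a ratio), −log10 p, −log10 q and a score. The score and −log10 q were not used. Intervals repeated once per summit were merged into 1 peak, ranked by the highest −log10 p. Gene positions and names came from a RefSeq table of assembly TAIR10.1 without strand or exons, and none of its coordinates is printed. As a check of its fit to the lists, summits were shifted by up to 2000 bp in steps of 50 bp. The fewest fell inside genes at shifts of -50 to 50 bp for all 10 pairings of a list with a chromosome. Gaps run to the nearest protein-coding gene on each side, with overlaps set to 0.

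Members, gene lists and alternatives were chosen with earlier results of these data known. Named genes were the 10 members, the neighbours of their summits, up to 3 genes with the strongest summits of each gene list, and the 3 nearest in fold to ERD10 and to COR47. Other named genes (those holding summits just outside the window, the labelled loci, AT3G48510 and the listed genes without summits) were chosen after their values were seen. The planned descriptions of promoter motifs and proteins were not run, since no sequence was used here. Assignment of summits to genes and the overlap rules were tested on simulated data. Python 3.11.15, pandas 2.3.3, numpy 2.4.6 and matplotlib 3.10.9 were used. Alternatives were windows of 500, 1000, 2000 and, added after seeing the data, 5000 bp, a −log10 p of at least 30, the 1000 strongest peaks, the nearest gene alone, any overlap, and summits within 100 bp.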

Additional observations from a re-analysis of the deposited data

How the results depend on the processing

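Of 53 values over 7 counts and 9 alternative settings, 45 stayed within 1.5 times the reported count. With the 1000 strongest peaks, DIG2 summits reached 3 members, the summits at members fell to 5 for DIG1 and 9 for DIG2, and 3 DIG1 and 3 DIG2 member peaks had a partner, because fewer peaks entered. With the 500 bp window there were 7 DIG1 and 8 DIG2 summits at members, and AT4G38410 lost its DIG2 summit. It was lost as well with a −log10 p of at least 30 and with the nearest gene alone. With the 5000 bp window, added after seeing the data, 7 members had a DIG1 summit and 6 a DIG2 summit, with AT2G21490, AT4G38410 and AT4G39130 gained for DIG1 and AT4G39130 for DIG2. COR47, ERD10, ERD14 and HIRD11 had summits of both factors with every window, the stricter threshold and the nearest gene alone, and HIRD11 dropped out with the 1000 strongest peaks. No paired analysis was possible because each factor has 1 list and no result comes from a test. Read depth is unknown, so an absent summit says only that none passed the authors' threshold.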

Other observations

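Summits of 1 interval carry letters in the deposited lists, and some letters are absent. The DIG1 interval beside ERD10 lacks its first 2 letters and the DIG2 interval there lacks its first. The DIG2 interval at the end of ERD14 lacks 1 letter as well. Over whole lists, 34.8% of 2909 lettered DIG1 intervals and 20.5% of 3180 lettered DIG2 intervals lacked at least 1 letter. The positions of the summits behind the absent letters were not analysed here.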
